A study of Mus musculus with 16 samples.

Results

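The expression of 10 genes was examined that encode histone-modifying or chromatin-remodelling proteins known to be mutated or overexpressed in small cell lung cancer (SCLC). They were chosen by gene symbol, as 10 of the 17655 genes listed in every sample. The acetyltransferase genes were Crebbp and Ep300. The histone H3 lysine 4 methyltransferase genes were Kmt2a, Kmt2c and Kmt2d. The Polycomb repressive complex 2 (PRC2) genes were Ezh2, Eed and Suz12. The remaining genes were the demethylase gene Kdm1a, also called LSD1, and the chromatin remodeller Lsh. Of these, 9 were listed under those symbols, and Lsh was read under its current symbol Hells. RefSeq also gives Lsh as an older name of Slc11a1, a different gene that had between 0 and 2 reads per library.

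The genes were measured by RNA sequencing of mouse preSC, cultured precancerous cells of SCLC labelled as Chga-positive neuroendocrine cells of the lung. All samples carried the same starting genotype: Rb1 null, Trp53 null and heterozygous for an Rbl2 null allele. The 8 "empty" samples came from cells infected with an empty lentiviral control, and the 8 "Wnt5a" samples from cells infected with a lentivirus carrying Wnt5a, a secreted Wnt ligand. Doxycycline (1 µg/mL, 48 hours) was given to the cells of both groups, and the comparison asks how Wnt5a alters expression in these cells. The labels used here name no promoter for the transgene and do not say whether a group is 1 clone or whether samples came from separate cultures, so p-values measure only the spread between these samples.

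Each sample held 7526676 to 8859862 recovered reads. Within samples 1 to 4, and within samples 5 to 8, of a group the read counts differed by no more than about sampling noise, with an index of dispersion over genes (1 for counting noise alone) of 0.987 to 1.05 in all 24 pairs. The 32 other pairs within a group had an index of 5.23 to 5.44. Samples 1 to 4 were therefore averaged as library A and samples 5 to 8 as library B, which leaves 2 libraries per group. Wnt5a itself had a normalised read count of 122 ± 31.4 (empty) and 1279 ± 325 (Wnt5a; SD, n = 2 libraries). The 9 neuroendocrine markers reported here were all expressed, Calca most of all, and Chga had a count of 4043 ± 462 (empty) and 3403 ± 561 (Wnt5a). Summed, they gave between 33889 and 35086 (empty) and between 28568 and 29924 (Wnt5a), and the part of this difference in the results below was not tested. The 4 listed leukocyte markers and 3 listed endothelial markers each summed to less than 6 in every library. The 5 fibroblast markers summed to 353 to 604 in empty and 244 to 248 in Wnt5a libraries. Nearly all of that was Dcn, while Pdgfra had at most 9.41, Col1a1 at most 3.56, and Col1a2 and Col3a1 at most 0.25 in every library. The 4 listed markers of other lung epithelium summed to 44.4 to 47.9 in empty and 42.5 to 42.7 in Wnt5a libraries, with Foxj1 the highest.

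Most of these proteins add or remove marks on histone tails, or are needed by an enzyme that does. CREBBP and EP300 are paralogous co-activators that acetylate histones at enhancers and promoters. KMT2C and KMT2D are the catalytic cores of the complexes that methylate histone H3 lysine 4 at enhancers, while KMT2A acts mainly at promoters. EZH2 is the methyltransferase of PRC2, which places the repressive lysine 27 mark and needs EED and SUZ12 for its activity. KDM1A removes lysine 4 methylation in repressor complexes, and in neuroendocrine cells is recruited by SNAG-domain factors such as INSM1 and GFI1. HELLS is a SNF2-family remodeller needed for normal DNA methylation. In SCLC the acetyltransferase and KMT2 genes are recurrently hit by inactivating mutations, and EZH2 is highly expressed, which is linked to loss of RB1 because E2F factors drive its gene.

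For that last reason the promoters of the 10 genes were searched for E2F-type strings, and the stretches that hold one are shown. The windows were those of RefSeq (GRCm38.p6), 250 bases before to 50 bases after the annotated start, and all 10 genes had one. The strings were TTTCCCGC, TTTGGCGC, TTTCGCGC and TTTGCCGC, on either strand. A string was found in 3 of the 10 windows, against 2.26% of all 32851 windows and 3.95% of the 12441 windows of genes tested below. Capitals mark the string, and position 1 is the annotated start. The stretches are 120 bases each, 5′ to 3′ on the gene's strand: Ezh2 from chr6:47595020-47595139 (minus strand), Suz12 from chr11:79992856-79992975 (plus strand) and Hells from chr19:38930872-38930991 (plus strand).
Ezh2: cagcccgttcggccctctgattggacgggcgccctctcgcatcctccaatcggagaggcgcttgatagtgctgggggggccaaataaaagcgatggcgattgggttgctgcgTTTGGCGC
Suz12: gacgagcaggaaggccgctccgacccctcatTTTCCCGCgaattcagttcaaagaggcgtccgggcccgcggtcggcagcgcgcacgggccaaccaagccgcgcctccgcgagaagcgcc
Hells: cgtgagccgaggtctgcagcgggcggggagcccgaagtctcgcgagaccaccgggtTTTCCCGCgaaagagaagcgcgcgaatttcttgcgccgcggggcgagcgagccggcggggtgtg
The string began at position 4 in Ezh2, at -219 in Suz12 and at -62 in Hells. A match is a description of these letters and does not show that a factor binds there. No string was found in the windows of Eed, Kdm1a, Crebbp, Ep300, Kmt2a, Kmt2c and Kmt2d.

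All 10 genes were expressed, with 1687 to 12197 reads per gene and library, and all 10 passed the filter of a mean normalised read count of at least 10. Levels were compared between genes per kilobase of the longest annotated transcript. In the empty libraries Kdm1a had the highest level, at 769 ± 56.4 normalised reads per kb (SD, n = 2). The PRC2 genes followed, with Suz12 at 446 ± 6.04, Ezh2 at 444 ± 29.2 and Eed at 231 ± 8.64. The large co-activator genes were lower: Kmt2a at 188 ± 21.8, Ep300 at 165 ± 21.1, Kmt2c at 137 ± 21.2, Kmt2d at 97.8 ± 8.75 and Crebbp at 67.6 ± 12.8. Hells lay among them at 85.6 ± 4.19. The median tested gene with a known length had 95.4 per kb, so Kdm1a, Suz12 and Ezh2 stood well above it and Hells and Crebbp below it. This placing rests on the longest transcript. RNA was primed with oligo dT, and read counts moved with transcript length between libraries, as given below. The part of length in the order of long and short genes was not tested. Per kilobase of coding sequence Hells stood at 204 ± 9.97 and Crebbp at 99.9 ± 18.8 (SD, n = 2), and the median gene is not given on that scale.

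The library ranges of several neighbours in this order overlapped. Suz12 and Ezh2 overlapped in the empty libraries, at 442 and 451 against 423 and 464 per kb in libraries A and B. The ranges of Kmt2a and Ep300 also overlapped, as did those of Ep300 and Kmt2c, but within each library of both groups their order held. In empty libraries A and B, Kmt2a stood at 203 and 173, Ep300 at 180 and 150, and Kmt2c at 152 and 122. Kmt2d (104 and 91.6) lay above Hells (82.7 and 88.6) in each empty library. In the Wnt5a libraries that last order was turned, with Hells at 106 ± 3.23 and Kmt2d at 78.8 ± 4.52 (SD, n = 2). Per kilobase of coding sequence, Hells moved up from the ninth to the seventh place in the empty libraries, and Suz12 stood above Kdm1a in the Wnt5a libraries, at 1018 ± 58.4 against 913 ± 28.2 (SD, n = 2). Among relatives, Ezh1 stood at 99.7 ± 14.1 per kb in the empty libraries, below Ezh2. Kdm1b stood at 103 ± 1.74, below Kdm1a.

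**Figure D1:**
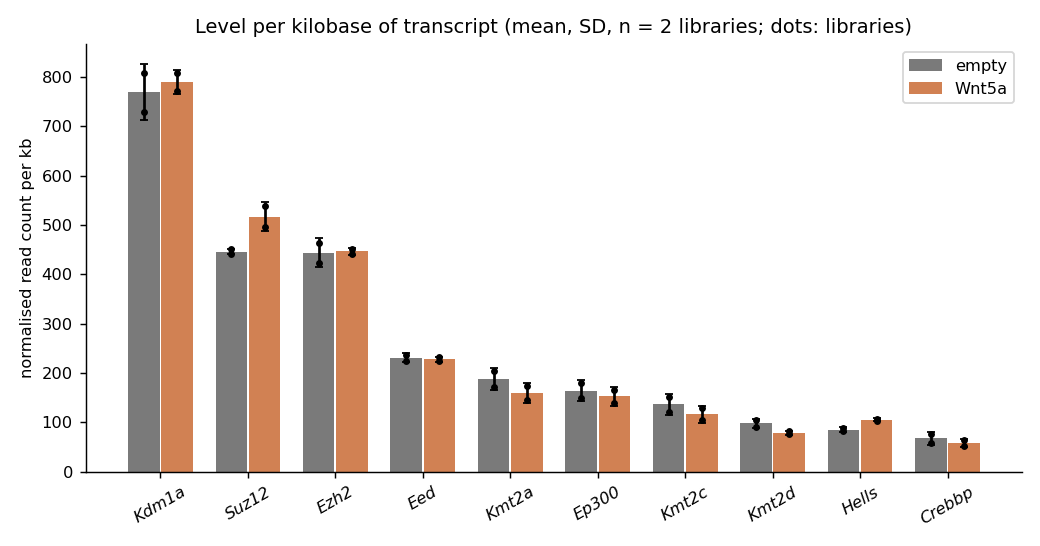
Level of each gene in normalised reads per kilobase of its longest transcript (bars: mean of 2 libraries; error bars: SD; dots: libraries A and B), for empty (grey) and Wnt5a (orange) cells. Kdm1a is highest at 769 in the empty libraries, the PRC2 genes follow, and Crebbp is lowest at 67.6.

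Between the groups, none of the 10 genes passed the test, and the differences ran from -19.3% for Kmt2d to 23.3% for Hells. Kmt2d, Kmt2a, Kmt2c, Crebbp and Ep300 were lower in Wnt5a than in empty cells in both library pairs. Hells and Suz12 were higher in both. Ezh2, Eed and Kdm1a had the smallest differences, and their sign differed between the library pairs. Of all 12357 genes tested, 254 passed (2.06%), 171 higher and 83 lower in Wnt5a libraries. The test was limma on log2(normalised read count + 1), with a Benjamini-Hochberg adjusted p under 0.05.

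By limma's p before adjustment, 3 of the 10 genes (Kmt2d, Suz12 and Hells) were under 0.05, against 16.1% of all tested genes. edgeR gave 0 of 10 at an adjusted p under 0.05, against 1.99% of all tested genes, and 3 at an unadjusted p under 0.05. DESeq2 gave 0 after adjustment, against 4.35% of all tested genes, and 4 before it, the fourth being Kmt2a. For edgeR and DESeq2 the shares of all tested genes before adjustment are not given, so these counts of 3 and 4 have no scale. The 2 libraries of one group did not overlap with those of the other for the same 3 genes, against 44.2% of all tested genes. The share of the 10 genes that separated was thus below that of all tested genes by library overlap and above it by limma's p before adjustment. With 2 libraries against 2, an exact two-sided permutation test of a single gene cannot give a p below 0.333. In these bulk samples, fewer cells of a type and less RNA per cell cannot be told apart.

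**Figure D2:**
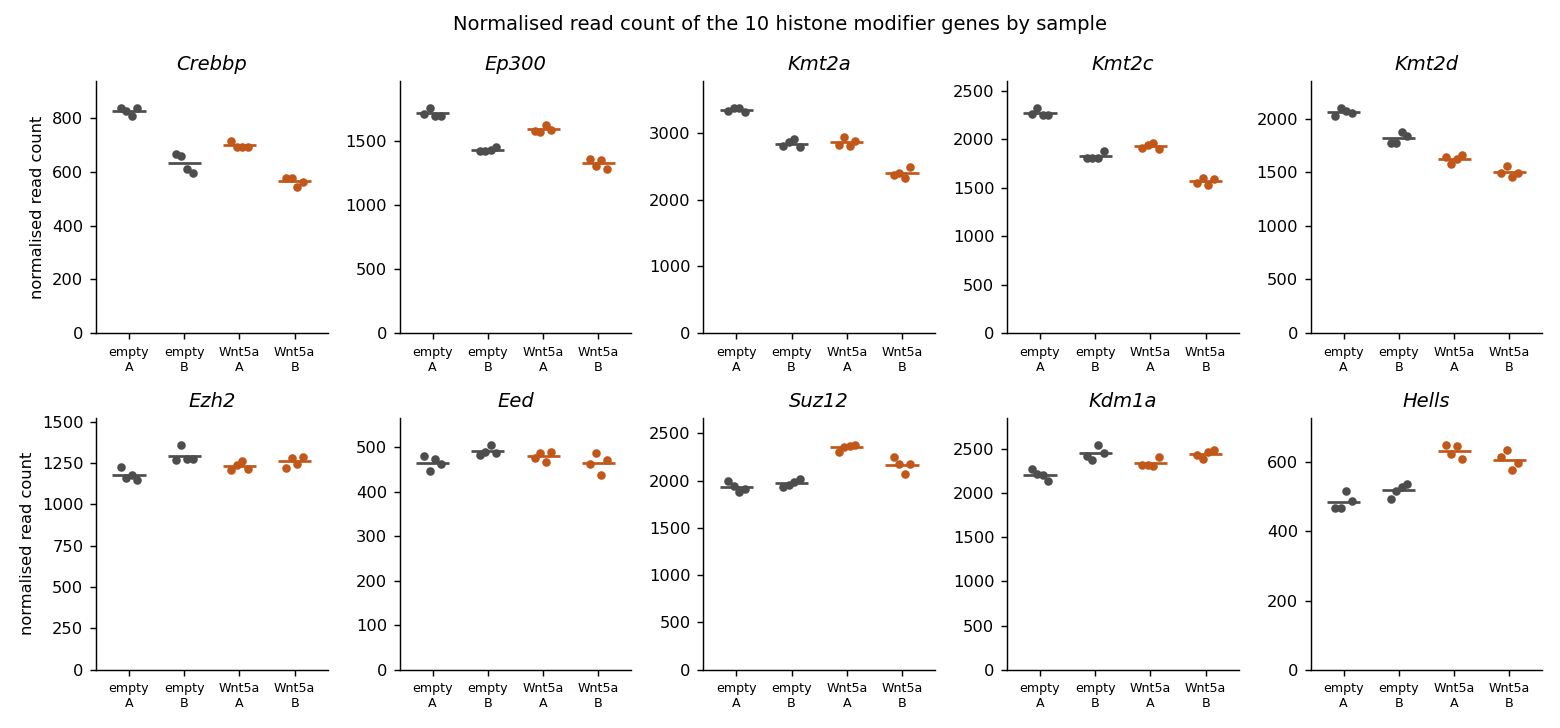
Normalised read count (y axis, from 0) of each of the 10 genes in the 16 samples, grouped by library on the x axis (points: samples; lines: mean of the 4 samples of a library; grey: empty, orange: Wnt5a). The top row steps down from library A to B within each group and from empty to Wnt5a; in the bottom row only Suz12 and Hells separate the groups.

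Kmt2d (chromosome 15) showed the largest difference among the methyltransferase genes. Its normalised read counts in the empty samples had a lowest value of 1771, a median of 1952 and a highest value of 2099. In the Wnt5a samples the lowest was 1451, the median 1569 and the highest 1658. All 8 Wnt5a samples thus lay under all 8 empty samples, which is a separation of 2 libraries from 2. Libraries did not overlap for 44.2% of all tested genes. Over libraries the counts were 1939 ± 173 (empty) and 1563 ± 89.5 (Wnt5a; SD, n = 2 libraries). On the log2 scale Kmt2d differed by -0.31, with a standard error of 0.09 (limma adjusted p = 0.158, unadjusted p = 0.012). The A pair of libraries gave -0.34 and the B pair -0.28.

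Kmt2a (chromosome 9), known from leukaemia translocations as MLL1, had counts of 2793 to 3377 in the empty samples with a median of 3114. The Wnt5a samples ran from 2332 to 2947 with a median of 2649. The ranges overlapped, because Wnt5a library A (2864) lay beside empty library B (2845). Wnt5a minus empty was -0.24 ± 0.12 (log2, standard error; limma adjusted p = 0.405). Its size was -0.23 in the A pair and -0.25 in the B pair.

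Kmt2c (chromosome 5), the paralogue of Kmt2d, ran from 1806 to 2325 in empty samples (median 2066) and from 1531 to 1960 in Wnt5a samples (median 1748). Wnt5a library A (1929) was above empty library B (1826), so the groups overlapped. Wnt5a minus empty was -0.23 ± 0.14 (log2, standard error; limma adjusted p = 0.506), with -0.24 in the A pair and -0.22 in the B pair. Kmt2b (chromosome 7), the nearest relative of Kmt2a, had a log2 difference of -0.03 (SE 0.07; limma adjusted p = 0.922). The difference between Kmt2b and the other KMT2 genes was not tested.

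Crebbp (chromosome 16) ran from 597 to 839 in the empty samples (median 739) and from 544 to 715 in the Wnt5a samples (median 637). The groups overlapped, with empty library B (634) under Wnt5a library A (699). Wnt5a minus empty was -0.20 ± 0.15 (log2, standard error; limma adjusted p = 0.614). Its paralogue Ep300 (chromosome 15) ran from 1421 to 1761 in empty samples (median 1577) and from 1286 to 1629 in Wnt5a samples (median 1471). These ranges also overlapped. The log2 difference of Ep300 was -0.11 (SE 0.12; limma adjusted p = 0.760), and it was -0.11 in each library pair. How reads shared by paralogues were counted is not stated in the sources used here.

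For these 5 co-activator genes the step between libraries A and B was similar in size to the step between the groups, larger for Crebbp, Ep300 and Kmt2c and smaller for Kmt2d. Library B was below library A for all 5 in both groups, by -0.39 to -0.18 on the log2 scale in empty cells and by -0.30 to -0.12 in Wnt5a cells. For Crebbp, B minus A was -0.39 in empty and -0.30 in Wnt5a libraries, more than its group difference. For Kmt2d it was -0.18 and -0.12, less than its group difference. Leaving out 1 library moved 4 of the 5 values by more than 1.5 times, Kmt2d being the exception, where the lone library left is assumed to vary like the others. Without empty library A the group difference was -0.01 for Crebbp, 0.02 for Ep300, -0.12 for Kmt2a, -0.07 for Kmt2c and -0.22 for Kmt2d. Without Wnt5a library B it was -0.05, 0.02, -0.11, -0.08 and -0.25 in the same order. Without empty library B it was -0.40, -0.24, -0.35, -0.39 and -0.40. Without Wnt5a library A it was -0.35, -0.24, -0.36, -0.38 and -0.37.

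**Figure D3:**
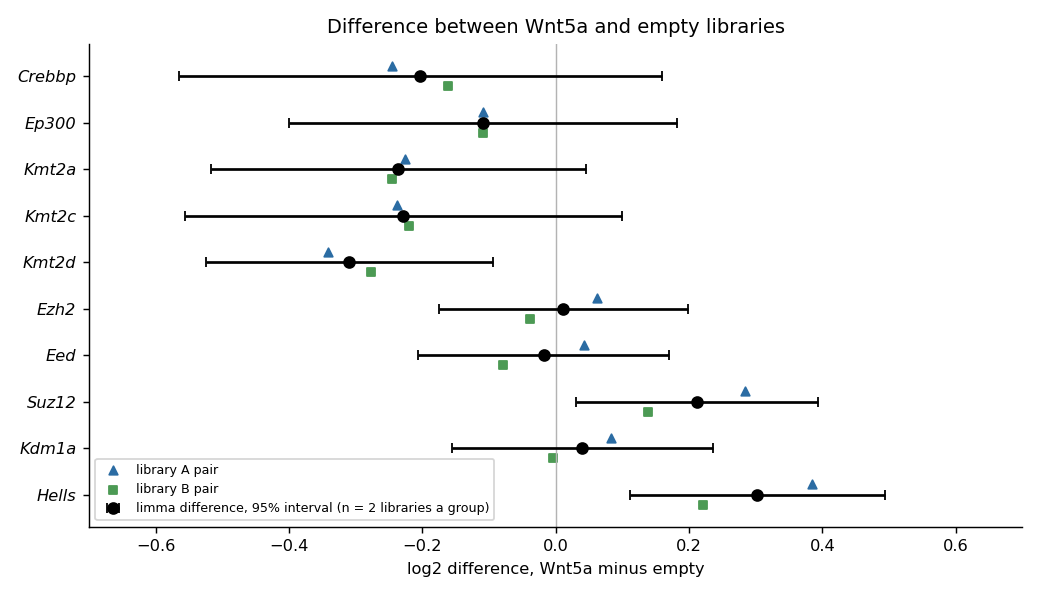
Log2 difference between Wnt5a and empty libraries (x axis) for each gene (black: limma estimate with its 95% interval; triangles: library A pair; squares: library B pair). The 5 co-activator genes lie left of 0 in both pairs and Suz12 and Hells right of 0, while Ezh2, Eed and Kdm1a straddle it.

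These 5 genes also share long transcripts, from 9.57 kb for Ep300 and 10.8 kb for Crebbp to 14.97 kb for Kmt2c, 16.5 kb for Kmt2a and 19.8 kb for Kmt2d. The longest transcripts of the 5 other genes were 2.07 to 5.87 kb. Across all tested genes, the difference between groups moved with transcript length. Its median on the log2 scale was 0.04 for the 2310 genes of at most 2 kb and -0.01 for the 4119 genes of 4 to 8 kb. It was -0.06 for the 618 genes of 8 to 12 kb and -0.18 for the 148 genes over 12 kb. B minus A moved the same way, with a median over 12 kb of -0.23 in empty and -0.19 in Wnt5a libraries. Among the 5 co-activator genes themselves B minus A did not follow length: in empty libraries it was smallest in size for the longest, Kmt2d (-0.18), and largest for Crebbp (-0.39). Their group difference did follow the order of length. From shortest to longest it was -0.11 for Ep300, -0.20 for Crebbp, -0.23 for Kmt2c, -0.24 for Kmt2a and -0.31 for Kmt2d. The cause of this order was not tested. With the trend on transcript length removed from each library, a step added after the data were seen, the 5 differences became -0.12 for Kmt2d, -0.08 for Kmt2c, -0.07 for Kmt2a, -0.11 for Crebbp and -0.03 for Ep300. Their limma p-values were then 0.140 to 0.675 before adjustment.

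Of the wider lists described below, 13 tested genes had transcripts over 8 kb, a set formed after the values were seen. Of these, 11 were below 0 and 2 above, with a median log2 difference of -0.03, and 0 passed the limma test after adjustment. The lowest was Kdm5b (8.71 kb, chromosome 1), a lysine 4 demethylase gene, at -0.33. Next came Setd1b (8.86 kb), a methyltransferase gene, at -0.12, and Tet1, a DNA demethylation enzyme with the longest transcript of the set (14.4 kb), at -0.08. Dnmt3a (9.69 kb) was the highest at 0.30, followed by Tet2 (9.18 kb) at 0.0095.

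**Figure D4:**
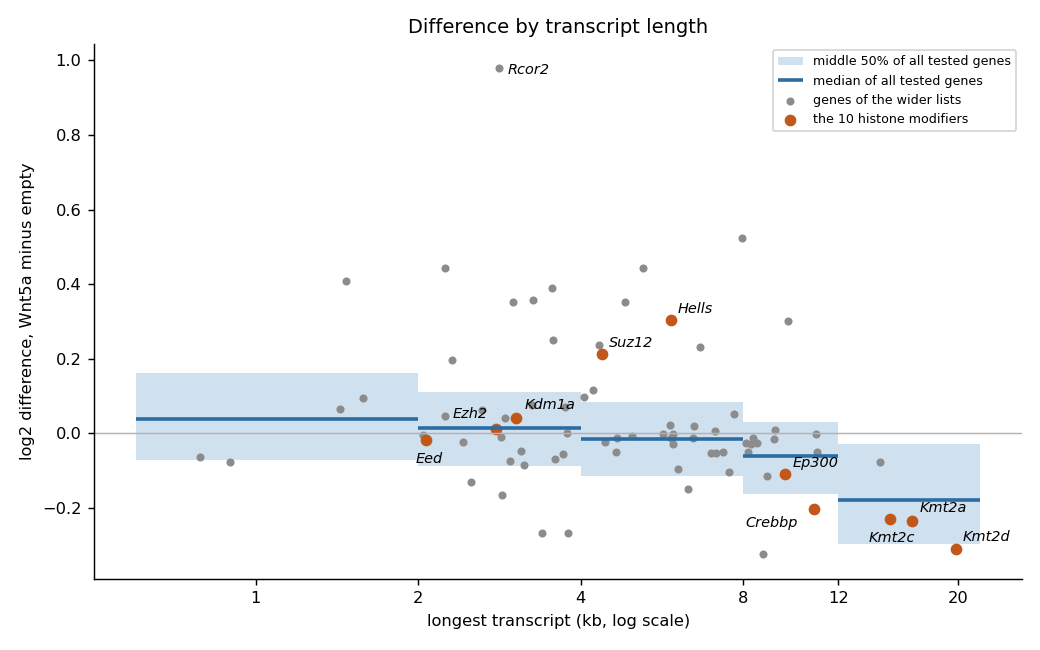
Log2 difference between Wnt5a and empty libraries (y axis) against the longest transcript (x axis, kb, log scale). Blue lines and bands give the median and middle 50% of all tested genes in 5 length classes, whose outermost classes are open-ended; grey points are genes of the wider lists and orange points the 10 genes. The class median falls to -0.18 above 12 kb, and Kmt2a, Kmt2c and Kmt2d lie below it.

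Within PRC2, the libraries of the 2 groups did not overlap for 1 of the 3 core genes, against 44.2% of all tested genes. Suz12 (chromosome 11), the scaffold subunit, ran from 1883 to 2014 in empty samples (median 1947) and from 2067 to 2380 in Wnt5a samples (median 2281). All 8 Wnt5a samples lay above all 8 empty samples, which is a separation of 2 libraries from 2. Over libraries the counts were 1952 ± 26.4 (empty) and 2262 ± 130 (Wnt5a; SD, n = 2 libraries). On the log2 scale this is a difference of 0.21 with a standard error of 0.08 (limma adjusted p = 0.236, unadjusted p = 0.029). It was 0.28 in the A pair and 0.14 in the B pair.

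Ezh2 (chromosome 6), the catalytic subunit, ran from 1149 to 1362 in empty samples (median 1248) and from 1209 to 1288 in Wnt5a samples (median 1241). The Wnt5a range lay inside the empty range. The log2 difference was 0.01 (SE 0.08), with a 95% interval of -0.18 to 0.20 (limma adjusted p = 0.965). Eed (chromosome 7), the subunit that reads the lysine 27 mark, ran from 446 to 505 in empty samples (median 480) and from 438 to 489 in Wnt5a samples (median 473). Its log2 difference was -0.02 (SE 0.08), with an interval of -0.21 to 0.17 (limma adjusted p = 0.951). A difference of the size seen for Suz12 lay outside both intervals by a narrow margin. The 95% interval of Suz12 itself, 0.03 to 0.39, overlapped both, and the difference between these genes was not tested.

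Kdm1a (chromosome 4) ran from 2140 to 2547 in empty samples (median 2326) and from 2309 to 2490 in Wnt5a samples (median 2400). The Wnt5a samples again lay within the empty range. The log2 difference was 0.04 (SE 0.08), with a 95% interval of -0.16 to 0.24 (limma adjusted p = 0.889). The A libraries differed by 0.08 and the B libraries by -0.0035.

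Hells (chromosome 19) showed the largest difference upward. It ran from 467 to 538 in the empty samples (median 505) and from 578 to 651 in the Wnt5a samples (median 620). All 8 Wnt5a samples lay above all 8 empty samples, again a separation of 2 libraries from 2, where 44.2% of all tested genes did not overlap. The counts over libraries were 502 ± 24.6 (empty) and 620 ± 18.98 (Wnt5a; SD, n = 2 libraries). On the log2 scale this is a difference of 0.30 with a standard error of 0.08 (limma adjusted p = 0.130, unadjusted p = 0.0074). It was 0.38 in the A pair and 0.22 in the B pair.

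The median gene of the chromosomes of Suz12 and of Hells was higher in Wnt5a libraries too. The median log2 difference of all tested genes was 0.17 on chromosome 11 (1006 genes) and 0.36 on chromosome 19 (404 genes), against 0.0026 over all genes. It was -0.17 on chromosome 1 (678 genes) and 0.48 over the 4 tested genes of the Y chromosome, and between -0.02 and 0.02 on the 17 other chromosomes. Hells at 0.30 was thus below the median of its chromosome, and Suz12 at 0.21 slightly above that of its own. With the chromosome medians removed from each library, a step added after the data were seen, Suz12 differed by 0.04 (limma unadjusted p = 0.624) and Hells by -0.04 (limma unadjusted p = 0.585). The other 8 genes lie on chromosomes without such a shift, and their values moved by less than 0.02.

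The partners of these enzymes were taken from 7 lists, of which 69 genes were tested. Of these, 1 gene, Rcor2, passed the limma test (2.06% of all genes did), and the median log2 difference over the 69 genes was -0.01. Rcor2 (chromosome 19) encodes a CoREST protein that joins KDM1A to its histone substrate. Its counts were 108 and 111 in the empty libraries and 225 and 208 in the Wnt5a libraries, so that the groups did not overlap. Wnt5a minus empty was 0.98 ± 0.10 (log2, standard error; limma adjusted p = 0.0066), and 0.63 with the chromosome medians removed (limma adjusted p = 0.039). Among the other CoREST genes, Rcor1 differed by -0.0019 and Rcor3 by -0.27 (limma adjusted p = 0.161).

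In the LSD1 list 14 genes were tested, and the median log2 difference was -0.05. Past the limma threshold, 1 was higher and 0 were lower in Wnt5a libraries, where 2.06% of all tested genes passed. Insm1, which recruits KDM1A in neuroendocrine cells, had counts of 5093 ± 180 (empty) and 4928 ± 257 (Wnt5a; SD, n = 2 libraries). Gfi1, a second SNAG-domain factor, differed by -0.17 (limma adjusted p = 0.365). The deacetylase genes Hdac1 and Hdac2, which act in the same complex, differed by -0.0059 and 0.08. Kdm1b differed by -0.0075 (limma adjusted p = 0.978).

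In the PRC2 list 0 of 10 tested genes passed, and the median was 0.06. Lcor, the gene that also encodes the accessory subunit PALI1, had the highest value at 0.35 (limma adjusted p = 0.202) and lies on chromosome 19. Phf1, a Polycomb-like accessory subunit, had the lowest value at -0.09 (limma adjusted p = 0.791). Ezh1, the second catalytic subunit, differed by 0.12 (limma adjusted p = 0.736). Rbbp4, a histone-binding subunit and the most abundant gene of this list, differed by -0.01.

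In the list of MLL and COMPASS subunits 0 of 14 tested genes passed, with a median of -0.01. Men1, which encodes the menin partner of KMT2A, was at 0.35 (chromosome 19; limma adjusted p = 0.094). Rbbp5, a core subunit of all these complexes, was at -0.27 (chromosome 1; limma adjusted p = 0.135). The other shared core genes Wdr5, Ash2l and Dpy30 lay between -0.06 and 0.04. Kdm6a, the lysine 27 demethylase that travels with KMT2C and KMT2D, differed by -0.03 (limma adjusted p = 0.925).

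Of 10 other acetyltransferase genes, 0 passed, with a median of 0.02. Kat5, which encodes TIP60, had the highest value, at 0.44 (chromosome 19; limma adjusted p = 0.067). Ncoa3, a nuclear receptor co-activator, had the lowest at -0.11 (limma adjusted p = 0.674). Kat2a on chromosome 11 was at 0.36 (limma adjusted p = 0.082).

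Of 7 genes for demethylases of lysine 27 and lysine 4, 0 passed, with a median of -0.01. The Y-linked Kdm5d had the highest value at 0.52 (limma adjusted p = 0.110) and Kdm5b the lowest at -0.33 (chromosome 1; limma adjusted p = 0.222). Of 11 DNA methylation genes and HELLS partners, 0 passed, with a median of -0.01. Uhrf2 was highest at 0.39 (chromosome 19; limma adjusted p = 0.102) and Tet1 lowest at -0.08. Cdca7, whose product activates HELLS on nucleosomes, differed by -0.02 (limma adjusted p = 0.933). Dnmt1, the maintenance methyltransferase, differed by -0.01.

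Genes reported downstream of these enzymes in SCLC were also read. Cdh1, a target of CREBBP, had counts of 7587 ± 219 (empty) and 7476 ± 630 (Wnt5a; SD, n = 2 libraries), which is a difference on the log2 scale of -0.02 (limma adjusted p = 0.944). Notch1, which KDM1A represses in SCLC, was at most 0.83 in every library and could not be tested. Hes1, a Notch target, was low, at 18.2 and 32.1 in empty and 29.6 and 35.6 in Wnt5a libraries, with overlapping groups. Tgfbr2 and Cdkn2a, which PRC2 can silence, differed by -0.03 and -0.08 (limma adjusted p = 0.951 and 0.777). None of the 4 genes tested in this list passed.

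The partner genes were also read by chromosome. Of the 69 genes, 14 had a limma unadjusted p under 0.05, 11 higher and 3 lower. Of these, 13 were among the 16 tested genes on chromosomes 1, 11, 19 and Y, and 1, Dnmt3a, was among the 53 on other chromosomes. Over all tested genes the shares were 43.1% on those 4 chromosomes and 10.6% elsewhere. Those 4 chromosomes were set apart for their shifted medians in these same data. A gathering of low p-values on them is therefore built in and is no separate result. The 3 lower genes, Rbbp5, Rcor3 and Kdm5b, are all on chromosome 1. With the chromosome medians removed, Rcor2 and Dnmt3a alone kept a limma unadjusted p under 0.05, in a fit that holds no gene of the Y chromosome. The share of all genes under 0.05 before adjustment in that fit is not given, so this count has no scale. Dnmt3a (chromosome 12), the de novo methyltransferase gene mutated in leukaemia, was at 1988 ± 114 (empty) and 2447 ± 5.85 (Wnt5a; SD, n = 2 libraries), which is a difference on the log2 scale of 0.30 (limma adjusted p = 0.118).

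**Figure D5:**
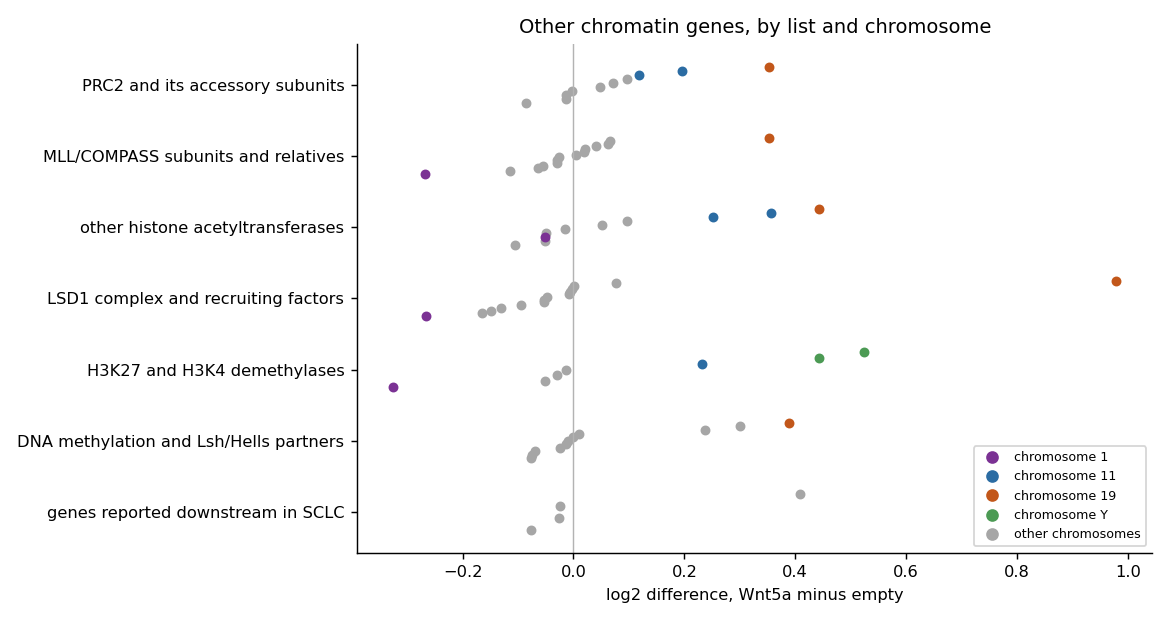
Log2 difference between Wnt5a and empty libraries (x axis) for the tested genes of the 7 lists (rows; 1 point a gene, ordered by value within a list), coloured by chromosome. Points beyond 0.2 on either side are mostly genes of chromosomes 1, 11, 19 and Y; Rcor2 on chromosome 19 stands apart at 0.98.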

How the data were processed

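RNA was measured by sequencing in 16 samples, 8 a group, from 500 ng of total RNA primed with oligo dT, per the labels' protocols. TopHat, Bowtie, HTSeq and DESeq2 are named without versions or roles per the submitters' processing notes, and the genome build is not given in the sources used here. The deposited signal values were whole reads divided by 1 factor per sample: multiplied by that factor, 100% of values were whole within 0.01. These recovered read counts were used for the index of dispersion, on which the averaging into libraries rests, and for depth and reads per gene. They were also used for the simulated data and the alternatives with edgeR and DESeq2. Libraries held 30220749 to 35315408 reads, and their number, 2 a group, limits the precision.

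The mean deposited value of the samples in a library was tested with limma 3.58.1 (R 4.3.3, trend) on log2(value + 1), for 12357 genes with a mean of at least 10. Fold changes of low genes are understated on this scale. The p-values were adjusted by Benjamini-Hochberg over all tested genes at 0.05. The limma, edgeR and DESeq2 fits were tested on simulated data, where the share of false calls lay above the nominal rate for all of them. Alternatives used edgeR 4.0.16, DESeq2 1.42.0, other pseudocounts, filters and scalings, single samples, a block and left-out libraries. Transcript lengths came from GENCODE M21 (12225 tested genes matched), and chromosomes from RefSeq GRCm38.p6 (12113 matched).

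The 10 genes, the lists and the E2F-type strings were chosen with earlier results of these data known. The naming rule took all 10 genes, list genes past the threshold, the highest and lowest tested gene of each list, Ezh1, Kmt2b, Kdm1b, Kdm6a and Wnt5a. Other list genes were named after their values were seen, for their role, length or chromosome. Of 72 list genes, 70 were listed and 69 tested. A further marker of the neuroendocrine list is not reported here.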

Additional observations from a re-analysis of the deposited data

How the results depend on the processing

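The count of 254 genes past the limma threshold, 0 of the 10 genes and 1 list gene moved with several settings. With no filter on low values 146 genes passed, with a minimum mean of 50 it was 102, without the trend 158, and by DESeq2 538 with 5 list genes. With all 16 samples counted separately, which takes samples of 1 library as replicates, 4377 genes passed (35.4% of all tested). Of the 10 genes 5 then passed, with 17 list genes. With all 16 samples and the library letter as a replicate block together, 6012 genes (48.7% of all tested), 7 of the 10 and 30 list genes passed. A fit of the libraries with that block gave 2095 genes (16.95% of all tested). It gave 6 of the 10 (Crebbp, Kmt2a, Kmt2c, Kmt2d, Suz12 and Hells) and 14 list genes. The samples share only a number, so this pairing is not established by the design; deviations of same-lettered libraries correlated across 12357 genes (Pearson's r 0.44, Spearman's rho 0.53), where genes are not independent replicates, as a hint from the data. Leaving out 1 library gave 138 to 1098 genes, 0 to 1 of the 10 and 1 to 5 list genes: 493 with 4 list genes without empty library A, 1098 without empty library B, 166 without Wnt5a library A and 138 without Wnt5a library B. With the length trend removed, 2 list genes passed. The cause of these moves was not tested.

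Some values changed sign. Ezh2 was at -0.0076 with median centring and -0.0017 with the length trend removed, where Kmt2b was at 0.0313 and Kdm1b at 0.0045. With chromosome medians removed, Hells went from 0.30 to -0.0442, and Ezh1 from 0.12 to -0.0556, and Kdm1b was at 0.000106. With 1 library left out, the log2 difference ran from -0.397 to -0.0099 for Crebbp, -0.240 to 0.0222 for Ep300, -0.364 to -0.108 for Kmt2a, -0.387 to -0.0703 for Kmt2c and -0.401 to -0.218 for Kmt2d. It ran from -0.0556 to 0.0787 for Ezh2, -0.0562 to 0.0199 for Eed, 0.153 to 0.270 for Suz12, -0.0350 to 0.115 for Kdm1a and 0.253 to 0.352 for Hells. For the relatives it ran from -0.0273 to 0.262 for Ezh1, -0.0658 to 0.0134 for Kmt2b, -0.0720 to 0.0570 for Kdm1b and -0.0985 to 0.0387 for Kdm6a, and for Rcor2 from 0.922 to 1.04. Within these ranges the sign also turned without empty library A for Ep300 (0.0221) and Kdm6a (0.0295), without empty library B for Kmt2b (0.0057) and Kdm1b (0.0097), and without Wnt5a library B for Ezh2 (-0.0055) and Eed (0.0043). Rcor2 passed the threshold under every setting run. Over single genes and all settings, 229 values kept their direction and side of the threshold, 20 newly passed and 21 changed sign. Levels per coding length from RefSeq proteins were not run, and GENCODE coding lengths were used instead. Removing the length trend or the chromosome medians, the coding lengths, and the counts without 1 library were chosen after seeing the data. The split into chromosomes 1, 11, 19 and Y and all others was also chosen after seeing the data.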
